A study of Mus musculus with 9 samples.

Results

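The genes described are those of IL-2 signalling through Janus kinases and STAT5, with the inhibitors that this signal induces and a receptor chain that uses the same kinases: Cish, Socs1, Socs2, Socs3, Stat5a, Stat5b, Jak1, Jak3, Il2rg and Il10ra. Members were taken as every probe set that the array's platform annotation assigns to one of these symbols alone. This gave 18 probe sets for 9 of the 10 genes, among 22626 probe sets that are not controls. Il2rg is not analysed here. A further 2 probe sets carry the symbol of Jak3 together with that of another gene, and were left out.

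Transcripts were measured on Affymetrix 3' arrays in regulatory T (Treg) cells, CD4+ T cells that restrain immune responses, taken from C57Bl/6 mice by magnetic separation of CD4+CD25+ cells. Of the 9 arrays, 3 came from fl-CBP/Foxp3cre mice (CBP-deleted), 3 from fl-p300/Foxp3cre mice (p300-deleted) and 3 from Foxp3cre mice (control), which the design text also names wild type. In the fl-CBP and fl-p300 mice a Cre recombinase made from the Foxp3 locus removes CBP or p300, paralogous enzymes that acetylate histones and transcription factors, so that deletion is limited to cells that have expressed Foxp3. The labels call the samples independent and give no age. They do not say whether a sample pools animals. CD25 is the alpha chain of the IL-2 receptor, so the cells were selected on a component of the pathway described here, and Il2ra levels are no independent reading of it.

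IL-2 binds a receptor whose beta chain carries the kinase JAK1 and whose common gamma chain carries JAK3. The activated kinases phosphorylate STAT5A and STAT5B, which enter the nucleus and switch on target genes. Among these targets are Cish and genes of the SOCS family, whose proteins bind receptors or kinases and shut the signal down again, so that their transcripts are often read as a measure of recent cytokine signalling. Treg cells make little IL-2 themselves, and depend on IL-2 from other T cells for survival and for stable Foxp3 expression. The IL-10 receptor chain IL10RA also signals through JAK1, but mainly to STAT3, which induces Socs3.

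STAT5 binds DNA at the motif TTCNNNGAA (N is any base), which reads the same on both strands. It was searched for in 300-base windows, 250 bases before and 50 bases after each annotated transcription start, taken from RefSeq (GRCm38.p6). The windows of Cish and Socs3 are shown because these are the members in which the motif was found, and both genes differed between the knockouts (below); capitals mark the matches. The Cish window lies at chr9:107296409-107296708 on the plus strand and the Socs3 window at chr11:117969317-117969616 on the minus strand.
Cish: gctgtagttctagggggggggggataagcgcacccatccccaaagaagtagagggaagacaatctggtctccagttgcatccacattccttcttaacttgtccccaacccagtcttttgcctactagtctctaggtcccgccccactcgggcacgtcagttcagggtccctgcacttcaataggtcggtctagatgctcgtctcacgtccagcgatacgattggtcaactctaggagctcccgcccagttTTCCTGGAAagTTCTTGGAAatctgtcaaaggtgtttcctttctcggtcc
Socs3: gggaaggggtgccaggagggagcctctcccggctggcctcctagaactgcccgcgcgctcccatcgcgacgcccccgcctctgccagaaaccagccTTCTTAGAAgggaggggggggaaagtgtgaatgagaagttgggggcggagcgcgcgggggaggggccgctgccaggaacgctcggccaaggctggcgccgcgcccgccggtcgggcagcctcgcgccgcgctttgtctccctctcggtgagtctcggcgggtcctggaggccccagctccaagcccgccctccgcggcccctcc

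The Cish window held 2 matches, TTCCTGGAA at the annotated start itself and TTCTTGGAA beginning at base 12 after it. In the Socs3 window the single match, TTCTTAGAA, began at base -154, counted back from the start. Among all 32851 windows, 8.30% held at least 1 match and 0.457% held at least 2. Windows were at hand for 7 of the 9 genes, and those of Socs1, Stat5a, Stat5b, Jak1 and Jak3 had none of these letters. Socs2 and Il10ra had no window. A match describes the letters only, and no binding was measured.

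The values are log2 expression, 1 per probe set and array, and array medians lay between 5.49 and 5.59. For a gene with several probe sets the brightest was used, which gave 12393 genes. Each comparison was made with limma over all 9 arrays, and p-values were adjusted over all genes by the Benjamini-Hochberg method with a threshold of 0.05. The Foxp3 probe set read log2 2.73 to 2.97 in CBP-deleted and 2.58 to 3.19 in p300-deleted arrays, against 9.48 to 9.75 in the controls. Which part of the Foxp3 transcript it reads is not given, so a fall of the transcript itself is not established by this reading. If the controls carry no Foxp3cre allele, the allele and the deletion cannot be told apart in a comparison with them. Both knockouts carry it. Crebbp, the gene of CBP, averaged 7.20 ± 0.13 in CBP-deleted cells, 7.56 ± 0.10 in p300-deleted cells and 7.53 ± 0.16 in controls (SD, n = 3 each). CBP-deleted cells did not differ from the control past the threshold in Crebbp (limma adjusted p = 0.123), and a probe set outside the deleted exon would not check the deletion. Cd3e and Cd4 define these T cells. Cd3e read 11.3 to 11.7 over all arrays and passed in no comparison. Every CBP-deleted array was nevertheless below every p300-deleted array in Cd3e (difference -0.21, limma adjusted p = 0.180). Cd4 averaged 9.43 ± 0.12 in CBP-deleted cells, 9.93 ± 0.16 in p300-deleted cells and 9.27 ± 0.28 in controls (SD, n = 3 each), and was higher in p300-deleted than in control cells by 0.66 (limma adjusted p = 0.0214). Cd4 differed by -0.51 between CBP-deleted and p300-deleted cells (limma adjusted p = 0.0503), and its part in the differences of the members was not tested. Of 9 Treg and CD4 T cell markers 0 passed between the knockouts in limma and 4 had an unadjusted p under 0.05. Only 1 of the 9 was higher in CBP-deleted cells. Against the control Ctla4 rose in CBP-deleted cells (0.56, limma adjusted p = 0.0165) and Cd3g in p300-deleted cells (0.28, limma adjusted p = 0.0307).

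Among the 4 feedback inhibitors, Cish, Socs2 and Socs3 were lower in CBP-deleted than in p300-deleted cells, by 1.63-, 1.67- and 1.47-fold, and the control mean lay between for each of them. Socs1 did not pass. That is 3 of 9 members lower and 0 higher, where 2.01% of all genes were lower and 5.2% passed in either direction. All 9 members are among the 6197 brightest genes. With only those kept and p-values adjusted over them, 10.6% passed in either direction. No kinase, STAT or receptor chain among the members passed in this comparison.

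Cish encodes CIS, an SH2-domain protein that binds activated cytokine receptors and a textbook target of STAT5. Its log2 level was 9.74, 9.84 and 9.61 in CBP-deleted arrays, 10.19, 10.46 and 10.67 in p300-deleted arrays, and 10.17, 10.18 and 9.86 in controls. The 3 groups did not overlap, with every CBP-deleted array lowest and every p300-deleted array highest. The margins to the controls were narrow. p300-deleted replicate 1 read 10.186 and control replicate 2 read 10.178, while CBP-deleted replicate 2 read 9.845 and control replicate 3 read 9.859. Every CBP-deleted array was below every p300-deleted array for 4 of the 9 members (Cish, Socs2, Socs3 and Stat5b) and for 14.4% of all genes. The log2 difference between CBP-deleted and p300-deleted cells was -0.71 (SE 0.13, 95% interval -0.99 to -0.43, limma adjusted p = 0.00862).

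Socs2, best known for restraining growth hormone signalling, was read by a pair of probe sets. The brighter one read 9.18, 9.23 and 8.97 in CBP-deleted arrays, 9.71, 9.78 and 10.10 in p300-deleted arrays, and 9.33, 9.56 and 9.74 in controls. Every CBP-deleted array was below all other arrays, while p300-deleted and control arrays overlapped. The difference between CBP-deleted and p300-deleted cells was -0.74 (SE 0.13, 95% interval -1.02 to -0.46, limma adjusted p = 0.00706). The dimmer probe set read 8.04, 8.06 and 8.11 in CBP-deleted arrays, 8.63, 8.90 and 8.87 in p300-deleted arrays, and 8.43, 8.61 and 8.55 in controls. On it the 3 groups did not overlap, narrowly so for p300-deleted and control arrays, and the difference between the knockouts was -0.73 (SE 0.10, limma adjusted p = 0.00505 over all 22626 probe sets).

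Socs3 encodes the inhibitor of receptors that signal through gp130, the IL-6 family chain. Its brightest probe set read 8.70, 8.60 and 9.10 in CBP-deleted arrays, 9.30, 9.45 and 9.30 in p300-deleted arrays, and 9.31, 8.98 and 8.95 in controls. CBP-deleted replicate 3 stood apart from the other CBP-deleted arrays, yet below all p300-deleted arrays. The difference between the knockouts was -0.55 (SE 0.14, 95% interval -0.85 to -0.26, limma adjusted p = 0.0365). All 3 Socs3 probe sets gave a difference of the same sign, at -0.55, -0.45 and -0.58, and in the fit of every probe set the last of these passed (limma adjusted p = 0.0359), against 0.0558 and 0.0784 for the others.

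The Socs3 call was the least secure of the 3. It was lost with array medians subtracted (adjusted p = 0.0520), without a variance trend (0.0540) and with the replicate number as a block (0.0664). It was also lost without CBP-deleted replicate 1 (0.136) or 2 (0.171) and without p300-deleted replicate 1 (0.0931), 2 (0.141) or 3 (0.0816), in a range of 0.00559 to 0.171 over 20 alternatives. Cish and Socs2 passed under all 20 alternatives, with adjusted p of 0.000927 to 0.0432 for Cish and 0.000995 to 0.0376 for Socs2.

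Socs1, the strongest inhibitor of JAK activity in the family and one that Treg cells require, followed another order. Its single probe set read 7.10, 7.08 and 6.94 in CBP-deleted arrays, 7.07, 7.45 and 7.62 in p300-deleted arrays, and 7.05, 6.74 and 6.84 in controls. All p300-deleted arrays were above all controls, by a narrow margin for replicate 1, whereas CBP-deleted arrays overlapped both groups. The difference between CBP-deleted and p300-deleted cells was -0.34 (95% interval -0.65 to -0.03, limma adjusted p = 0.229). It was 0.50 between p300-deleted and control cells (limma adjusted p = 0.0749) and 0.17 between CBP-deleted and control cells (limma adjusted p = 0.561). The p300-deleted difference from the control was 0.66 without p300-deleted replicate 1 (adjusted p = 0.0338), 0.47 without replicate 2 (0.250) and 0.38 without replicate 3 (0.199).

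**Figure D1:**
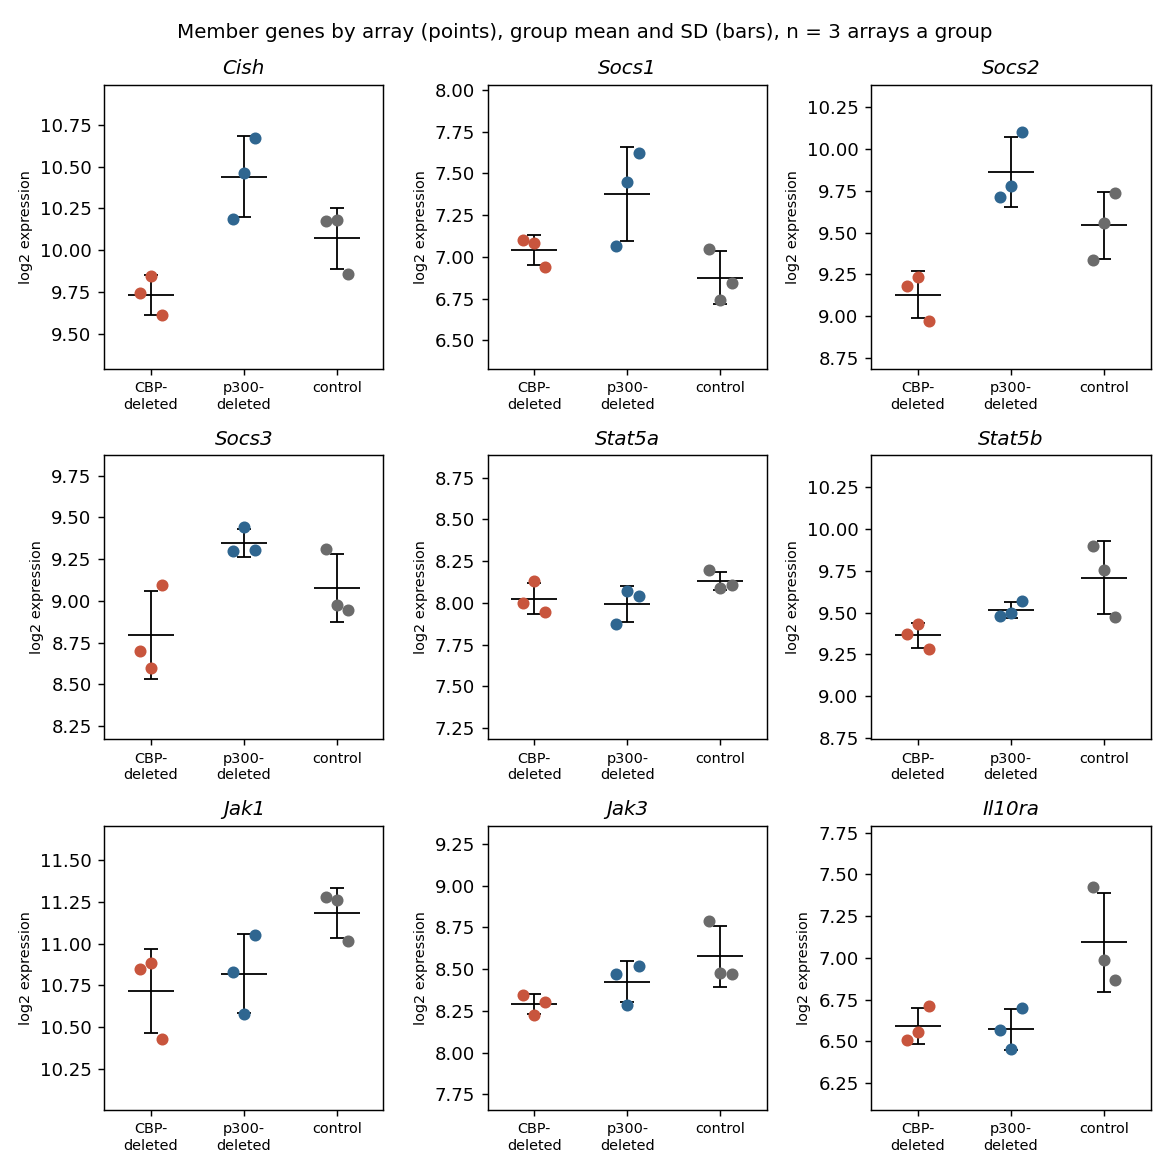
Log2 expression of the 9 member genes on each array (points; brightest probe set of each gene), with group mean and SD (bars, n = 3), for CBP-deleted, p300-deleted and control Treg cells; every panel spans the same number of log2 units. For Cish the 3 groups do not overlap, though by narrow margins on either side of the controls, with CBP-deleted arrays at 9.61 to 9.84 and p300-deleted arrays at 10.19 to 10.67. For Il10ra every array of either knockout lies below every control array.

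Against the controls, no inhibitor passed the threshold in either knockout in the fit of genes. In CBP-deleted cells the log2 difference from the control was -0.34 for Cish (limma adjusted p = 0.154), -0.42 for Socs2 (0.0893) and -0.28 for Socs3 (0.272). In p300-deleted cells it was 0.37 for Cish (limma adjusted p = 0.137), 0.32 for Socs2 (0.198) and 0.27 for Socs3 (0.315). These comparisons share the 3 control arrays. The dimmer Socs2 probe set was the exception: in the fit of every probe set it fell by 0.46 in CBP-deleted cells against the control (SE 0.10, limma adjusted p = 0.0367), as 1 of 18 member probe sets, where 2.5% of all probe sets passed. In order of level, control cells were thus next to each knockout for Cish, Socs2 and Socs3, and at the level of genes only the outer groups, CBP-deleted and p300-deleted, differed past the threshold.

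**Figure D2:**
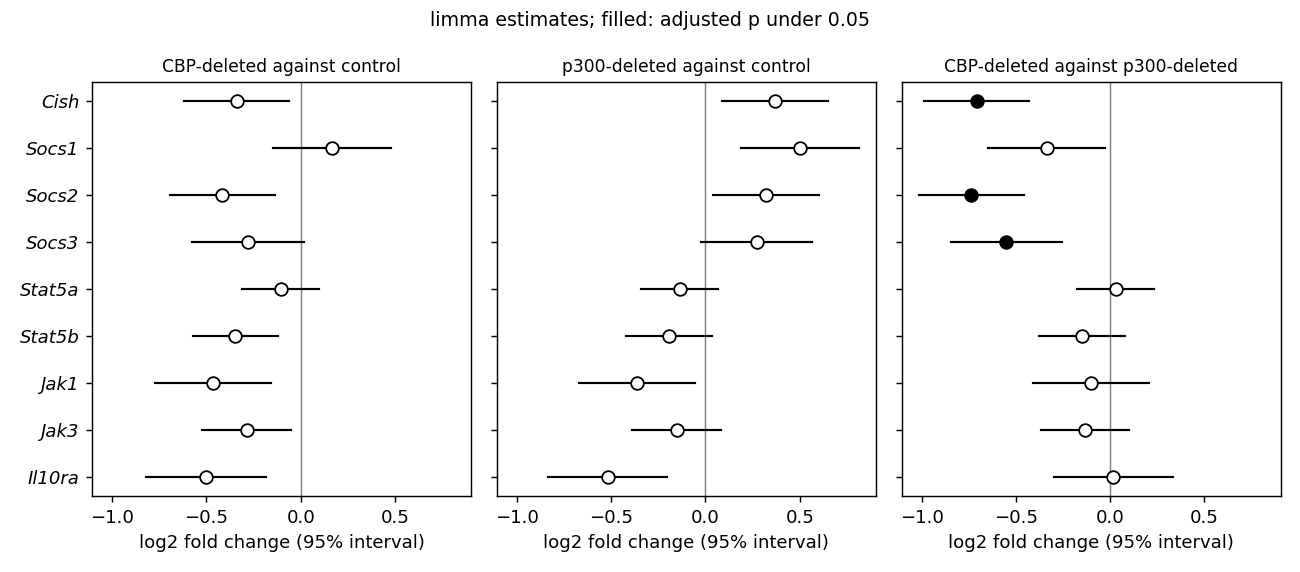
Log2 fold change (x axis) with its 95% interval from limma for each member gene in the 3 comparisons; filled points have an adjusted p under 0.05. The filled points are Cish (-0.71), Socs2 (-0.74) and Socs3 (-0.55) in CBP-deleted against p300-deleted cells, and no point is filled against the control.

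The kinases, STATs and Il10ra lay lower in CBP-deleted than in control cells without passing the threshold. Of the 9 members 0 passed in limma, where 4.93% of all genes did. At an unadjusted p under 0.05 there were 6 lower, namely Cish, Socs2, Stat5b, Jak1, Jak3 and Il10ra, and 0 higher, where 11.2% of all genes were lower and 9.13% higher at that level. The same 6 members had every CBP-deleted array below every control, as did 14.5% of all genes. The median log2 fold change was -0.34 over the members and -0.03 over all genes. These counts leaned on single arrays: without control replicate 3, Cish, Stat5b, Jak1 and Il10ra passed, where 9.13% of all genes then did, and without any other single array 0 of the 9 members passed. With arrays weighted by their quality 6 members passed, and 14.2% of all genes.

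Il10ra encodes the ligand-binding chain of the IL-10 receptor. Its brightest probe set read 6.51, 6.55 and 6.71 in CBP-deleted arrays, 6.57, 6.45 and 6.70 in p300-deleted arrays, and 7.43, 6.99 and 6.86 in controls. Every knockout array was below every control, and control replicate 1 was the highest. The difference from the control was -0.50 in CBP-deleted cells (SE 0.14, limma adjusted p = 0.0727) and -0.52 in p300-deleted cells (SE 0.14, limma adjusted p = 0.0697). Without control replicate 3 these were -0.62 (adjusted p = 0.0230) and -0.63 (0.0255), and without control replicate 1 they were -0.34 (0.202) and -0.35 (0.171). Between the knockouts the difference was 0.02, with a 95% interval of -0.30 to 0.33. The other Il10ra probe sets were dim, with 44.6% and 15.2% of all probe sets below them, and differed from the control by no more than 0.09 where CBP was deleted and 0.06 where p300 was.

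Jak1, the kinase on the IL-2 receptor beta chain and on the IL-10 and interferon receptors, was read by 3 probe sets. The brightest read 10.85, 10.88 and 10.43 in CBP-deleted arrays, 10.83, 10.58 and 11.05 in p300-deleted arrays, and 11.28, 11.26 and 11.01 in controls. All CBP-deleted arrays were below all controls, and p300-deleted replicate 3 reached the control range. The differences from the control were -0.47 in CBP-deleted cells (limma adjusted p = 0.0828) and -0.36 in p300-deleted cells (limma adjusted p = 0.180). The other Jak1 probe sets gave -0.15 and -1.06 in CBP-deleted cells and 0.07 and -0.60 in p300-deleted cells, so the probe sets of this gene differ in size, and in p300-deleted cells in sign. The one at -1.06 was also the most variable, from 7.40 to 8.41 in CBP-deleted arrays and from 8.27 to 9.70 in controls (limma adjusted p = 0.154).

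Jak3, the kinase bound to the common gamma chain and found mostly in blood cells, read 8.34, 8.23 and 8.30 in CBP-deleted arrays, 8.47, 8.29 and 8.52 in p300-deleted arrays, and 8.79, 8.48 and 8.47 in controls. CBP-deleted arrays were below all controls, with control replicate 1 apart from the other controls. Jak3 differed from the control by -0.29 in CBP-deleted cells (limma adjusted p = 0.152) and by -0.15 in p300-deleted cells (limma adjusted p = 0.504). Without control replicate 1 these were -0.18 (adjusted p = 0.392) and -0.048 (0.859).

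Stat5b and Stat5a are neighbouring genes on chromosome 11 that encode closely related factors. The brighter Stat5b probe set read 9.37, 9.43 and 9.28 in CBP-deleted arrays, 9.48, 9.49 and 9.57 in p300-deleted arrays, and 9.90, 9.76 and 9.47 in controls. CBP-deleted arrays were below all others, and control replicate 3 lay within the range of the knockouts. Stat5b differed from the control by -0.35 in CBP-deleted cells (SE 0.10, limma adjusted p = 0.0832) and by -0.19 in p300-deleted cells (limma adjusted p = 0.357). Without control replicate 3 these were -0.46 (adjusted p = 0.00736) and -0.31 (0.0489), and without control replicate 1 they were -0.25 (0.240) and -0.10 (0.683).

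Stat5a did not pass in any of the 3 comparisons. Its brighter probe set read 7.95 to 8.13 in CBP-deleted arrays, 7.87, 8.07 and 8.04 in p300-deleted arrays, and 8.20, 8.09 and 8.11 in controls. CBP-deleted arrays overlapped the controls, and p300-deleted arrays lay just below them. The 95% interval of the difference from the control was -0.31 to 0.10 in CBP-deleted cells and -0.34 to 0.07 in p300-deleted cells, and between the knockouts it was -0.18 to 0.23. The dimmer Stat5a probe set went the other way against the control, by 0.56 where CBP was deleted and 0.44 where p300 was, with control replicate 2 at 4.67 and the other controls at 5.84 and 5.82. The dimmer Stat5b probe set also differed in sign from the brighter one in CBP-deleted cells against the control, at 0.14 (limma adjusted p = 0.601).

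**Figure D3:**
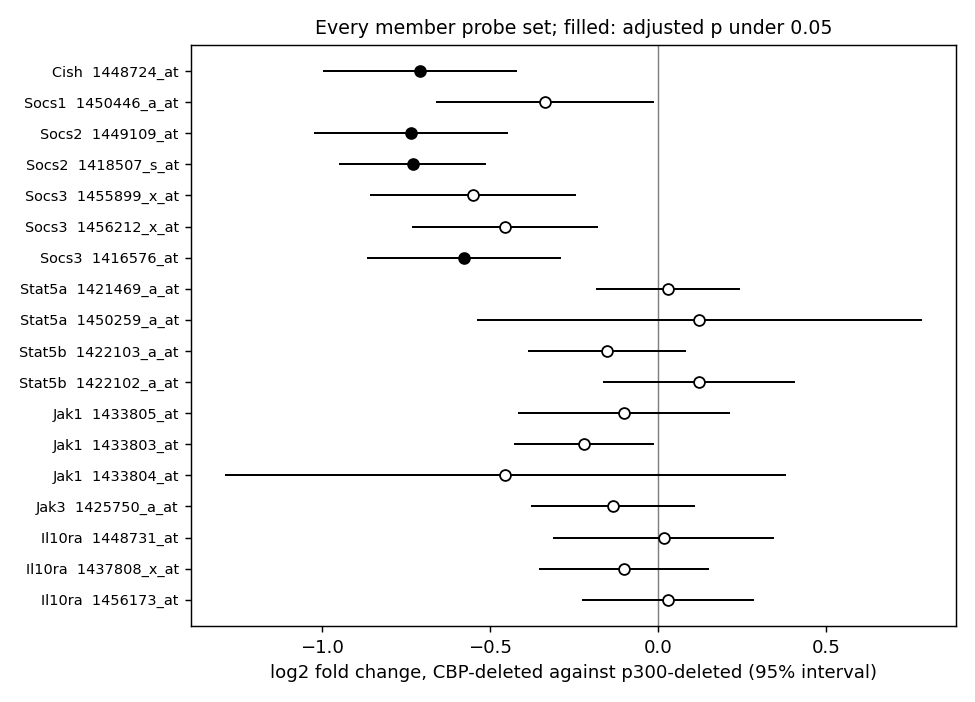
Log2 fold change in CBP-deleted against p300-deleted cells (x axis) with its 95% interval for each of the 18 member probe sets, from the fit of every probe set; filled points have an adjusted p under 0.05. All 7 probe sets of the 4 inhibitors lie below 0 with intervals that exclude it. A Jak1 probe set does so too (-0.22, 95% interval -0.43 to -0.02). The share of all probe sets with such an interval is not given here. Of the 18, 4 pass, all lower (1.25% of all probe sets), and all of them belong to inhibitors. The probe sets of Jak1 and Jak3 all lie below 0, those of Stat5a above 0, and those of Stat5b and Il10ra on both sides.

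In p300-deleted against control cells 0 of the 9 members passed in limma, where 4.06% of all genes did. At an unadjusted p under 0.05, Cish, Socs1 and Socs2 were higher and Jak1 and Il10ra lower, where 8.31% of all genes were higher and 10.3% lower at that level. Every p300-deleted array was above every control for Cish and Socs1 (8.76% of all genes) and below every control for Stat5a and Il10ra (11.5% of all genes). The inhibitors had a median of 0.34 and the kinases and STATs a median of -0.17, so that the median over all 9 members, -0.14, describes neither class. Between CBP-deleted and p300-deleted cells the median was -0.63 over the 4 inhibitors and -0.12 over the 4 kinases and STATs, beside -0.02 over all genes.

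Other genes of the pathway were taken from 6 lists of 60 genes in all, of which 55 were measured. Between CBP-deleted and p300-deleted cells 1 rose and 4 fell. Among 14 measured genes listed as STAT5 targets, Lta and Ltb fell, which encode lymphotoxins of the TNF family that shape lymphoid tissue, and 0 rose. Lta read 8.13, 8.16 and 7.86 in CBP-deleted arrays, 8.79, 9.12 and 8.93 in p300-deleted arrays, and 8.33, 8.40 and 8.31 in controls. The groups did not overlap and had the order of Cish, with controls between the knockouts. Its log2 difference was -0.90 between the knockouts (SE 0.11, limma adjusted p = 0.00169) and 0.60 between p300-deleted and control cells (SE 0.11, limma adjusted p = 0.0148).

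Ltb fell by 0.52 in CBP-deleted against p300-deleted cells (SE 0.07, limma adjusted p = 0.00169) and by 0.46 against the control (SE 0.07, limma adjusted p = 0.00452). It read 12.02 to 12.14 in CBP-deleted arrays, 12.56 to 12.63 in p300-deleted arrays and 12.45 to 12.57 in controls, so the CBP-deleted arrays alone stood apart. In CBP-deleted against control cells the costimulatory receptor gene Tnfrsf4 (0.43, limma adjusted p = 0.0367) and the cell cycle kinase gene Cdk6 (0.54, limma adjusted p = 0.0332) rose. Cdk6 averaged 4.15 ± 0.12 in CBP-deleted cells and 3.60 ± 0.19 in controls (SD, n = 3 each), low readings on these arrays. The STAT5 target list thus had 2 higher and 1 lower of 14 past the threshold in that comparison. Only 3 of the 14 had a positive difference, and the median was -0.27, beside -0.03 over all genes. At an unadjusted p under 0.05 in limma there were 9 of the 14, where 11.2% of all genes were lower and 9.13% higher. In p300-deleted against control cells Lta alone passed, as higher. There 7 of the 14 were positive and the median was -0.01.

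Of 12 other receptor chains, Ifngr1, the ligand-binding chain of the interferon-gamma receptor, rose by 0.59 in CBP-deleted against p300-deleted cells (SE 0.12, limma adjusted p = 0.0141), and Il10rb, the partner chain of IL10RA, fell by 0.31 (SE 0.08, limma adjusted p = 0.0436). Il21r, which pairs with the common gamma chain, rose by 0.64 in p300-deleted against control cells (SE 0.11, limma adjusted p = 0.0112), with 8.02, 8.04 and 7.98 in p300-deleted arrays and 7.46, 7.20 and 7.47 in controls. In CBP-deleted against control cells 0 of the 12 passed in limma and 4 had an unadjusted p under 0.05; the largest difference was that of Ifngr1 at 0.44 (adjusted p = 0.0578).

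Of 10 other inhibitors, the phosphatase gene Ptpn6 (SHP-1) fell by 0.36 in CBP-deleted against p300-deleted cells (SE 0.09, limma adjusted p = 0.0435), and the phosphatase gene Ptpn11 (SHP-2) rose by 0.35 in p300-deleted against control cells (SE 0.09, limma adjusted p = 0.0481). In CBP-deleted against control cells 0 passed in limma and 4 had an unadjusted p under 0.05, with Socs6 furthest at 0.47 (adjusted p = 0.155). Of 6 other kinases and STATs, 0 passed in any comparison in limma and 1 had an unadjusted p under 0.05 in each; the largest differences were those of Tyk2 at -0.28 in CBP-deleted against control cells, and of Stat2 at 0.47 in p300-deleted against control cells and -0.26 between the knockouts. The 7 adaptors and genes of the PI3K branch also had 0 passing, with 1 at an unadjusted p under 0.05 in each knockout against the control and 2 between the knockouts; the largest differences were those of Pik3cd at -0.27 in CBP-deleted against control cells (adjusted p = 0.171) and -0.31 between the knockouts (0.129), and of Sos1 at 0.41 in p300-deleted against control cells (0.296).

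Of 6 cytokines, Il10 and Il21 rose in each knockout against the same controls, and 0 passed between the knockouts in limma, where 0 also had an unadjusted p under 0.05 and the largest difference was that of Il15 at 0.63 (adjusted p = 0.446). Il21, whose receptor uses the common gamma chain, read 6.12, 6.17 and 6.31 in CBP-deleted arrays, 5.69, 6.06 and 5.75 in p300-deleted arrays, and 4.71, 5.30 and 4.72 in controls. Both knockouts lay above all controls. Il10 rose by 0.98 in CBP-deleted cells (limma adjusted p = 0.00898) and by 0.90 in p300-deleted cells (limma adjusted p = 0.0118). Over all 6 lists, 5 of 55 genes (9.09%) passed in CBP-deleted against control cells, 4 higher and 1 lower, beside 4.93% of all genes, and 5 passed in p300-deleted against control cells, all higher, beside 4.06% of all genes. The share between the knockouts was likewise 9.09%, beside 5.2% of all genes. With only the 6197 brightest genes kept, 9.76% of them passed in CBP-deleted against control cells. In p300-deleted against control cells 7.87% then passed, and between the knockouts 10.6%. The shares of the lists were not clearly above those of bright genes, but the shares are not alike. Those of bright genes were adjusted over the 6197 genes alone. Those of the lists were adjusted over all 12393 genes, and the lists hold dim genes such as Il7 and Cdk6. The lists were chosen with earlier results of these data known, and an excess was not tested.

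**Figure D4:**
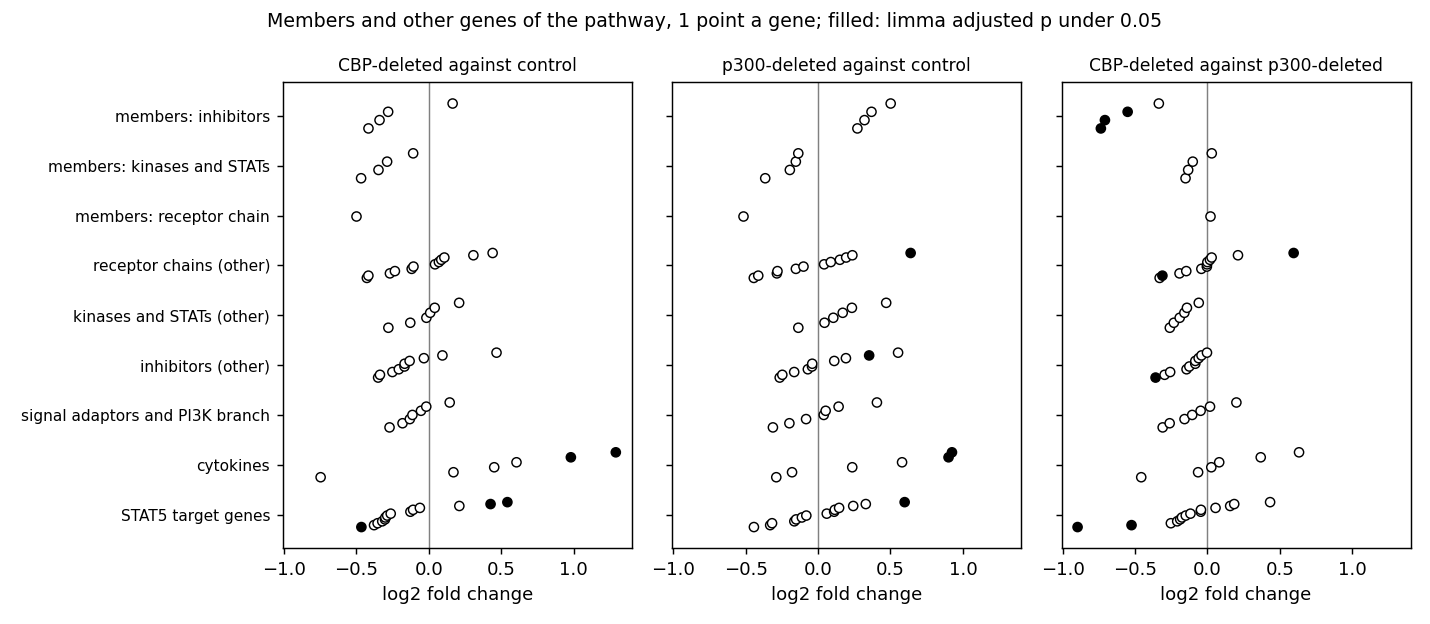
Log2 fold change (x axis) of the member genes by class and of the other genes of the pathway by list, 1 point a gene, in the 3 comparisons; filled points have a limma adjusted p under 0.05. Between the knockouts the filled points on the left are Cish, Socs2 and Socs3 among the members and Lta (-0.90), Ltb, Ptpn6 and Il10rb among the other genes, and Ifngr1 (0.59) is the only filled point on the right.

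For each member the gene with the most similar profile was sought among 6108 others at or above the median level, as a description over 9 arrays that share their groups. Pearson's r was 0.95 for Cish with Bmyc, a relative of Myc, 0.94 for Socs1 with Tgfbr2, a TGF-beta receptor, 0.93 for Socs2 with Atg13, an autophagy factor, and 0.93 for Socs3 with the homeobox gene Pbx2. It was 0.97 for Stat5b with the prolyl hydroxylase gene Egln2 and 0.92 for Stat5a with Asb6. The remaining values were 0.95 for Jak1 with the kinase gene Mark2, 0.98 for Jak3 with the exchange factor gene Cyth2, and 0.96 for Il10ra with the G protein gene Gnai2. Each r is the highest of 6108 values over only 9 arrays, and what height unrelated genes would reach was not tested. No member had another member as its counterpart, since members were left out of the search.

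Transcripts of other cells moved between the same groups. Of 5 plasma cell markers 4 (Sdc1, Tnfrsf17, Jchain and Xbp1) were lower in CBP-deleted than in p300-deleted cells, and the log2 of their summed level was 12.2 to 12.6 in CBP-deleted, 13.2 to 13.5 in p300-deleted and 12.2 to 12.6 in control arrays. Of 5 basophil and mast cell markers 1 (Cpa3) was lower and 4 had an unadjusted p under 0.05, with sums of 7.26 to 8.56 in CBP-deleted, 8.53 to 9.43 in p300-deleted and 7.21 to 7.48 in control arrays. Of 7 CD8 T and NK cell markers, 5 B cell markers and 8 neutrophil and myeloid markers 0 passed between the knockouts in limma, with 5, 2 and 1 at an unadjusted p under 0.05. The CD8 T and NK cell sums were 10.2 to 10.8 in CBP-deleted, 10.9 to 11.2 in p300-deleted and 10.6 to 10.9 in control arrays. The B cell sums were 8.37 to 8.97, 9.06 to 9.52 and 9.39 to 9.71 in the same order. For both lists the knockouts did not overlap, and all 5 B cell markers were lower in CBP-deleted than in p300-deleted cells. In p300-deleted against control cells, where Lta, Il21r, Ptpn11, Il10 and Il21 rose, 4 of 5 plasma cell markers and 4 of 5 basophil and mast cell markers were higher. So were 1 of 7 CD8 T and NK cell markers (Ncr1) and 1 of 8 neutrophil and myeloid markers (Camp). The part of these cells in the differences of those 5 genes was not tested. The neutrophil and myeloid sums ranged from 9.10 to 12.1 in CBP-deleted, 9.28 to 11.4 in p300-deleted and 7.55 to 8.96 in control arrays. The highest, 12.1, was CBP-deleted replicate 3. The part of these cells in the differences of Cish, Socs2 and Socs3 was not tested, and in bulk samples fewer cells of a type and less RNA per cell cannot be told apart. In CBP-deleted and control cells the plasma cell sums overlapped and 0 of 5 markers passed in limma (1 at an unadjusted p under 0.05), while 3 of 5 B cell markers (Cd79a, Cd79b and Cd22) were lower in CBP-deleted cells. Of 7 CD8 T and NK cell markers 2 (Cd8b1 and Gzmk) were higher than in controls, and of 2 measured erythroid markers 1 (Alas2) was lower. The erythroid sums were 4.69 to 4.89 in CBP-deleted, 4.76 to 5.26 in p300-deleted and 5.22 to 6.24 in control arrays. Control replicate 3 was the highest of them. Without CBP-deleted replicate 3 the differences between the knockouts were -0.65 for Cish (limma adjusted p = 0.0432) and -0.66 for Socs2 (limma adjusted p = 0.0376). For Socs3 the difference was then -0.70, further from 0 than the -0.55 with all arrays.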

How the data were processed

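The deposited table holds log2 values, 1 per probe set and array, which the authors made with RMA, per the submitters' processing notes; version and settings are not given in the sources used here. Its values were used as deposited. After 64 control probe sets were set aside, 20380 probe sets carried 1 gene symbol in the platform annotation, 691 several and 1555 none; symbols were checked against RefSeq (GRCm38.p6), where 24 gene identifiers had no match. Genes took their brightest probe set over all arrays, and every probe set was also fitted on its own.

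limma 3.58.1 in R 4.3.3 fitted 1 mean per group over 9 arrays (6 residual degrees of freedom), with moderation along a trend on mean expression, two-sided. The procedure was tested on simulated data with independent noise and arrays of equal quality. That cannot show how it does where arrays differ in quality or cell mixture. p-values set a difference of means against the moderated spread between samples, which may in part be technical. An exact permutation test of 3 against 3 arrays cannot reach the threshold and was not used.

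The members and lists were chosen with earlier results of these data known. Named are all members, every listed pathway gene that passed or, failing that, the one with the largest difference, and for each member its most similar gene. Alternatives were the choice of probe set, filters, normalization, variance model, array weights, the arrays fitted, a replicate block and leaving out each array. The arrays have no depth; their number limits the precision.

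Same-numbered replicates did not deviate together in every pair, so the numbers were not taken as pairs.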

Additional observations from a re-analysis of the deposited data

How the results depend on the processing

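Between CBP-deleted and p300-deleted cells 2 or 3 of 9 members passed under all 20 alternatives, where 1.71% to 11.8% of all genes did. The cause of the changes below was not tested. Where an array was left out, the fit also had fewer samples. Socs3 lost its call with every probe set tested on its own (adjusted p = 0.0558, difference -0.55), with array medians subtracted (-0.54), without a variance trend (-0.55), with a replicate block (-0.55, adjusted p = 0.0664), and without 5 single arrays, its difference ranging from -0.70 to -0.45 without single arrays.

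In CBP-deleted against control cells the count of members was 1 with the mean of all probe sets, 6 with array weights and 0 to 4 without single arrays (4 without control replicate 3), and it was 0 with a replicate block. Of all genes 4.14%, 14.2%, 0.686% to 9.13% and 2.94% passed, in the same order. The members' probe sets that passed, 1 of 18, became 0 with _s_at and _x_at probe sets left out, without a trend, with only the arrays compared or with a replicate block, 7 with array weights and 0 to 3 without single arrays. In p300-deleted against control cells 2 members and 1 probe set passed with array weights, where 8.3% of all genes did. Without single arrays 0 to 2 members and 0 to 1 probe sets passed there, where 0.524% to 6.89% of all genes did. The members' median there was 0.15 with the mean of all probe sets. Between the knockouts 1 to 6 probe sets passed without single arrays. The shares of all probe sets under these alternatives are not given here, so no excess is read from the counts of probe sets.

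All genes past the threshold numbered 611 in CBP-deleted against control cells, 366 with every probe set, 1755 with array weights, 261 with only the arrays compared, 364 with a replicate block and 85 to 1131 without single arrays. In p300-deleted against control cells they numbered 503, and 1028, 165, 326 and 65 to 854 with array weights, the arrays compared, the replicate block and without single arrays. Between the knockouts they numbered 645, and 1467 with array weights, 1386 with the arrays compared and 212 to 1041 without single arrays.

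Signs turned for differences that had not passed. With the mean of all probe sets Stat5a was 0.23 in CBP-deleted and 0.15 in p300-deleted against control cells, and Il10ra -0.018 between the knockouts. Without single arrays Stat5a ranged from -0.033 to 0.069, Jak1 from -0.22 to 0.043 and Il10ra from -0.044 to 0.079 between the knockouts. Of 27 member results 10 kept direction and side of the threshold under every alternative.

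The replicate numbers of the titles were checked as pairs: deviations of same-numbered arrays correlated at -0.23 to 0.27.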
